A study of Tupaia belangeri chinensis with 36 samples.

Results

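The annotation of the Chinese tree shrew genome holds noncoding features that carry the symbol of a protein-coding gene, either as LINC- followed by the symbol (intergenic) or as the symbol followed by -AS- (antisense). The 529 features described here were those whose symbol began like that of a gene of the extracellular matrix or of its receptors and proteases: collagens (COL), laminins (LAM), ADAMTS and MMP proteases, integrin subunits (ITGA, ITGB), fibronectin, tenascins, lecticans and link proteins, glypicans, syndecans and reelin. They were chosen by name, with earlier results of these data known, out of 54371 LINC and AS features and 76871 features in all. They comprised 255 LINC and 274 AS features under 122 symbols. Of these symbols, 97 had more than 1 feature, so members of one symbol are not independent of each other. The name gives the gene that a feature is called after. It does not give a function of the RNA.

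The RNA came from fetal cortex of the Chinese tree shrew (Tupaia belangeri chinensis), with no treatment or engineered allele given for any group, and was cut out layer by layer by laser capture microdissection. Embryonic day 28 (E28) had 2 libraries each of the ventricular zone (VZ), inner and outer subventricular zone (ISVZ, OSVZ), intermediate zone (IZ), cortical plate (CP) and marginal zone (MZ). E37 had 3 libraries of the IZ, 2 each of the MZ and of the inner and outer cortical plate (CPi, CPo) and 1 of the whole CP. E42 had 2 each of the ISVZ, OSVZ, IZ, CPi, CPo and MZ and 1 of the VZ, since the second E42 VZ file was identical in every value to the second E28 VZ file and was left out. Layer identity could not be checked with marker genes, because the coding features carry identifiers that are not paired with symbols here.

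The extracellular matrix is the mesh of collagens, laminins, proteoglycans and glycoproteins around cells. In the fetal cortex it surrounds radial glia and their basal processes, and the basement membrane under the pia anchors the radial glial endfeet. Integrins are the cell surface receptors that bind matrix proteins, ADAMTS and MMP enzymes cut them, and reelin is a large secreted glycoprotein made in the marginal zone by Cajal-Retzius neurons.

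Across the 35 libraries, counts on features ranged from 17932690 to 102042743, of which the 529 members took 0.002147% to 0.008938%. Between 39 and 173 members had a count in a library. Reads were selected for poly-A tails, so RNAs without a tail are under-represented. The strand setting of the counting is not given in the sources used here, and the reads of an AS feature cannot be told apart from those of the gene on the other strand. In bulk samples, fewer cells of a type and less RNA per cell cannot be told apart either. All levels below are CPM, counts scaled to the size of the library after TMM adjustment and not divided by length, and are compared between libraries for the same feature only.

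Most members were scarcely counted. In all, 222 of the 529 had no count in any library, 5 had a count in every library, and 70 (13.2%) passed the filter on low counts, against 19.9% of all LINC and AS features. A feature could pass through a single library, because the smallest groups hold 1 library, so those 70 do not stand for the whole list. Some passed only through the layer in which they were later called high, and such calls are not independent of the filter. Members named after fibrillar collagens, the rope-forming collagens of connective tissue, were the group with no feature past the filter: 24 of 36 had no count at all. The highest of them by mean CPM, COL5A3-AS-4, had 27 counts over 12 of 35 libraries and reached 0.143 CPM. For ADAMTS-like genes (ADAMTSL), whose proteins lack the protease domain, 1 of 26 members passed. LINC-ADAMTSL4-1 did not, with 46 counts over 13 libraries. A further 23 features met the rule only through the start of their symbol (TNRC6A, TNRC6B, TNRC6C, TNRC18, SDCBP, SDCBP2 and SDCCAG8, which are not matrix genes), and 12 of these passed.

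**Figure D1:**
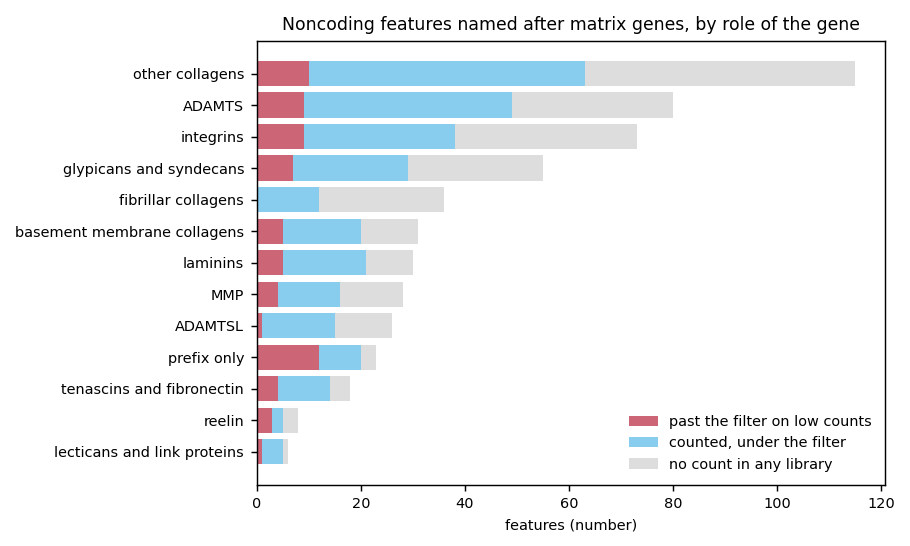
Number of features (horizontal axis) by role of the gene in the name, split into those past the filter on low counts, those counted but under it, and those with no count in 35 libraries. No fibrillar collagen feature passed, and the prefix-only features had 12 of 23 past the filter.

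The counts were concentrated in a few features. LINC-ITGAE-1 alone took 33.6% of the 48256 member counts, and the 4 most counted members (with MMP15-AS-1, ITGB5-AS-3 and TNC-AS-2) took 61.4%. The summed level of all members was 22.2 to 85 CPM (median 34.7). At E28 the group means were 23.1 CPM in the ISVZ, 27.3 in the OSVZ and 30.3 in the VZ, and 32, 33.1 and 44.3 in the CP, IZ and MZ. The single E42 VZ library had the highest sum, to which ITGB5-AS-3 contributed 30.2 CPM and TNC-AS-2 18.8 CPM.

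**Figure D2:**
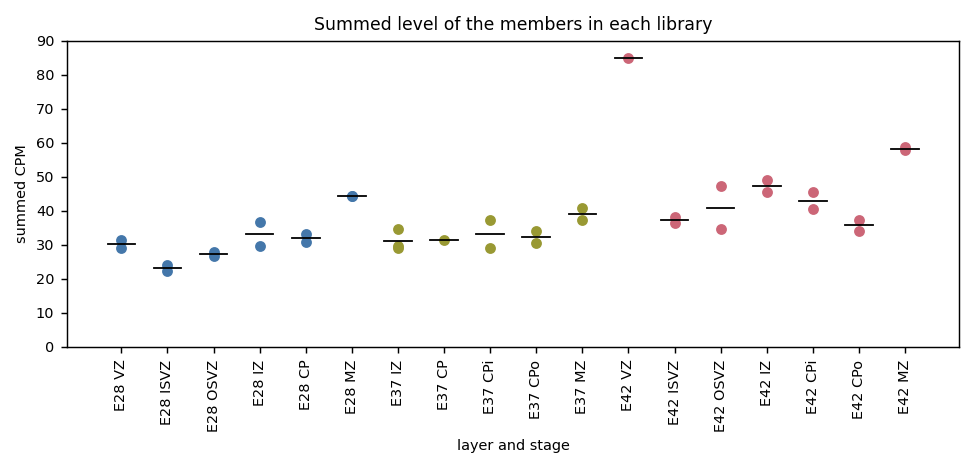
Summed CPM of the 529 features (vertical axis) in each library (points) by layer and stage, with the group mean as a bar. The E42 VZ library sits at 85 CPM and the other libraries lie lower.

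The 9 contrasts were tested in 1 edgeR quasi-likelihood model over 26858 features, and calls were made at a Benjamini-Hochberg adjusted p under 0.05 over all of them. A contrast of mean log levels has no test for a feature that lacks any count in a layer on each side of it, because the fitted means then run without limit and the p goes to 1. This removed 14 to 30 of the 70 members, depending on the contrast, and 863 to 4720 of all features. Such features are not counted as unchanged, and the shares below are of testable features.

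At E28, germinal layers (VZ, ISVZ, OSVZ) against neuron-rich layers (IZ, CP, MZ) gave 4 members higher and 7 lower in the germinal layers among 44 testable, where 21.5% of all testable features were higher and 19.9% lower, and 8.54% and 13.8% of the other LINC and AS features. At E42 (ISVZ and OSVZ against IZ, CP and MZ) 2 were higher and 6 lower among 54, against 14.9% and 13.9% of all and 8.2% and 3.92% of the other LINC and AS features. Without E42 OSVZ replicate 2 the 8 calls became 4. Of the called members, 8 of 11 at E28 and 3 of 8 at E42 had no count in some layer compared, and their calls rest on few reads. In the contrasts below, some layer had no count for 6 of 8 called between MZ and CP and 6 of 8 between IZ and CP. With stage this was so for 4 of 8 in the subventricular zones and 7 of 12 in the neuron-rich layers. It was also so for the 1 called in the difference between stage changes. For all these members the fitted log2 difference and its SE do not give a size. The median log2 difference of the testable members was -0.34 at E28 and 0.17 at E42, beside -0.02 and 0.15 over all testable features.

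Between the subventricular zones, 1 of 53 members was higher in the OSVZ than in the ISVZ at E28 and 0 were lower, against 4.04% and 5.52% of all features. That call was lost without ISVZ replicate 1 or OSVZ replicate 2. At E42, edgeR called 0 of 56 in either direction, against 0.492% and 0.308% of all. There, 3 members had an unadjusted p under 0.05, and DESeq2 and limma also called 0.

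Over the 3 stages, 7 members were higher and 1 lower in the MZ than in the CP among 46 testable, against 18.2% and 17.3% of all features and 8.6% and 5.19% of the other LINC and AS features. The 8 calls became 5 without E28 MZ replicate 1. RELN-AS-5, RELN-AS-4 and LINC-GPC1-5 had at most 0.122, 0.129 and 0.0989 CPM outside the MZ, so they passed the filter through the MZ. HAPLN1-AS-1, the member called lower, had at most 0.173 CPM outside the CP and passed through the CP. These calls are not independent of the filter. In the IZ, 8 members were higher than in the CP and 0 lower among 44, against 11.7% and 11.1% of all and 4.77% and 1.62% of the other LINC and AS features. Of these, COL25A1-AS-3 had at most 0.152 CPM outside the IZ and passed the filter through the IZ. Single libraries left out gave 1 to 8 calls in the IZ, and 12 of 18 such fits stayed within 1.5 times of 8. The lower counts were 1 and 3 without E28 CP replicates 2 and 1, 2 without E37 IZ replicate 3, 4 without E42 CPo replicate 1 and 5 without either E28 IZ library. The median log2 difference of the testable members was 0.45 for MZ against CP and 0.81 for IZ against CP. Over all testable features it was 0.03 and 0.07, and over the other LINC and AS features 0.15 and 0.31.

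From E28 to E42, 7 members rose and 1 fell in the ISVZ and OSVZ among 51 testable, against 13.5% and 10.4% of all features and 7.82% and 1.48% of the other LINC and AS features. The 8 calls became 4 without ISVZ replicate 1 of either stage and 3 without E28 OSVZ replicate 1 or E42 OSVZ replicate 2. In the neuron-rich layers, 10 rose and 2 fell among 52, against 19.1% and 11.4% of all and 8.68% and 5.18% of the other LINC and AS features, and 7 calls were left without E42 IZ replicate 2. The median log2 change was 0.91 for the members and 0.80 for the other LINC and AS features in the subventricular zones, and 0.42 and 0.19 in the neuron-rich layers. In the subventricular zones 6 members had a side at 0 counts. With lower bounds in place of their fitted values, the members' median there was 0.71. The same was not done for the other features. Over all testable features the fitted median was 0.25 and 0.12, and the changes below are to be read against these shifts. The difference between the 2 stage changes was called for 0 members higher and 1 lower among 40, against 4.97% and 7.56% of all. That call was lost without E28 OSVZ replicate 1 or E42 ISVZ replicate 2, and without E42 MZ replicate 1 there were 2 calls. These contrasts share libraries with each other. In all, 30 of the 70 members were called in at least 1 contrast and 40 in none. The same count was not made over all features, so it cannot be read against a background.

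**Figure D3:**
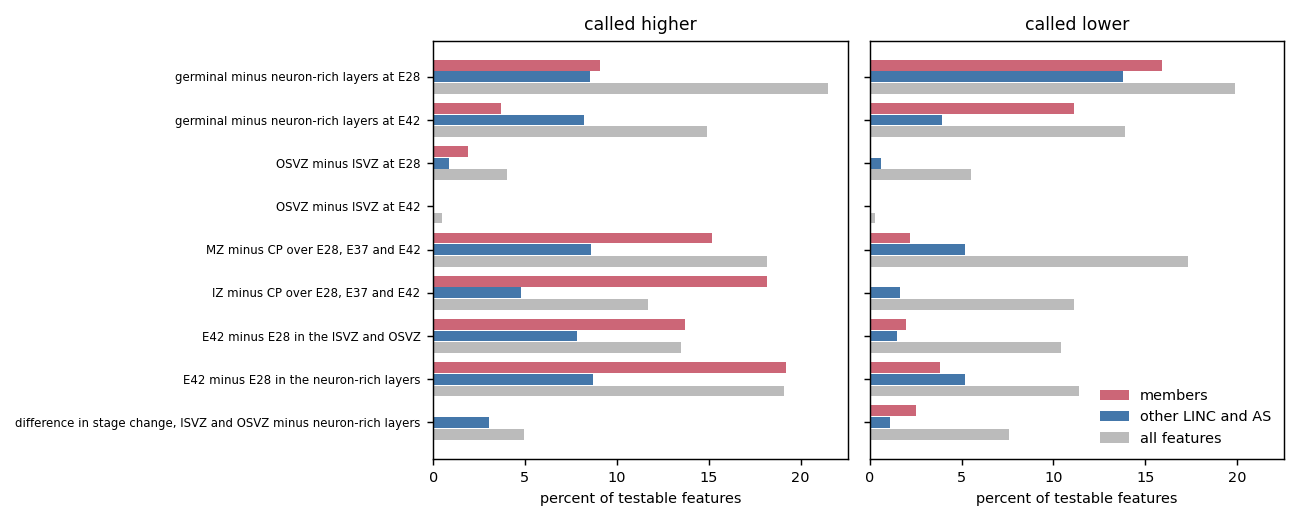
Percent of testable features called higher (left) and lower (right) at adjusted p under 0.05 in each contrast, for members, for the other LINC and AS features and for all features (bars). With stage in the subventricular zones, 13.7% of members were called higher and 1.96% lower. The shares were 7.82% and 1.48% for the other LINC and AS features and 13.5% and 10.4% for all features.

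Among integrin features, LINC-ITGAE-1 separated the germinal from the neuron-rich layers at both stages. ITGAE encodes the integrin alpha E subunit, known from lymphocytes in epithelia. At E28 the level of LINC-ITGAE-1 was 2.55 and 3.78 CPM in the VZ, 4.0 and 5.48 in the ISVZ and 9.11 and 10.2 in the OSVZ. In the neuron-rich layers at E28 it was 17.5 and 13.0 in the IZ, 15.8 and 18.2 in the CP and 20.8 and 23.2 in the MZ. All 6 germinal libraries lay below all 6 neuron-rich ones, and the neuron-rich level was 3.03-fold higher from pooled counts (fitted log2 difference -1.76, SE 0.15, edgeR adjusted p = 7.12e-11).

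At E42 LINC-ITGAE-1 was at 5.69 CPM in the VZ library, at 4.03 and 5.3 in the ISVZ and at 5.76 and 5.03 in the OSVZ. The 8 libraries of the IZ, CP and MZ had 15.2 to 21.0 CPM (median 17.6) and did not overlap with the 4 subventricular ones (3.51-fold, log2 -1.80, SE 0.17, adjusted p = 2.05e-09). Both calls held with each library left out in turn. At E37 it lay between 10.3 and 12.1 CPM in the 3 IZ libraries and between 14.4 and 18.7 in those of the CP and MZ. The higher level in the OSVZ than in the ISVZ at E28 (log2 1.02, SE 0.26, adjusted p = 0.00954) did not hold without ISVZ replicate 1 (log2 0.82, adjusted p = 0.178), without OSVZ replicate 2 (0.94, adjusted p = 0.0951), or in a model of those 4 libraries alone (1.11, adjusted p = 0.0696).

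ITGB5-AS-3 is named after the integrin beta 5 subunit, which pairs with alpha v to bind vitronectin. At E28 it was at 1.05 and 2.42 CPM in the VZ, at 0.108 and 0.335 in the ISVZ and at 0 and 0.0289 in the OSVZ, and 1 count was found in the 6 neuron-rich libraries. At E42 it reached 30.2 CPM in the VZ library, 7.45 and 10.2 in the ISVZ, 10.8 and 13.0 in the OSVZ, 2.68 and 6.87 in the IZ and 3.51 and 13.5 in the MZ. The CPi had 1.36 and 1.66 and the CPo 0.337 and 0.257. Every E42 library of the compared layers lay above every E28 library, both in the subventricular zones and in the neuron-rich layers.

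The stage difference of ITGB5-AS-3 in the ISVZ and OSVZ was 90.1-fold, or 253-fold without E28 ISVZ replicate 2 (log2 7.33, SE 0.74, adjusted p = 8.57e-08). In the neuron-rich layers the ratio of pooled levels was 537, with a 95% counting interval of 96.1 to 21200 because E28 holds 1 count (adjusted p = 5.89e-09). Such intervals cover counting error only. The E37 libraries, at 0 to 0.252 CPM, were all below those of E42. At E42 the subventricular level was 3.39-fold that of the neuron-rich layers (log2 1.77, SE 0.43, adjusted p = 0.00239), with overlap through the MZ. The E28 call for higher germinal levels (adjusted p = 0.0138) cannot be tested without OSVZ replicate 2, which carries the only OSVZ reads.

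The other integrin features named here showed smaller or less firm differences. ITGB1-AS-1, called after the beta 1 subunit shared by most matrix-binding integrins, ranged from 0.338 to 3.6 CPM and was called in no contrast. ITGA7-AS-1, after a laminin-binding subunit, had 38 counts in the neuron-rich and 3 in the germinal layers at E28 (ratio 14.5, 95% counting interval 4.62 to 73.7, adjusted p = 0.0216), a ratio of 8.47 without MZ replicate 1 and 35.8 without OSVZ replicate 1. It was counted in 3 of 6 neuron-rich libraries, and leaving out IZ replicate 1, MZ replicate 1 or CP replicate 2 left no test. With limma its adjusted p was 0.187, and with only the compared libraries 0.0881. ITGA7-AS-1 had at most 0.055 CPM in any germinal library and passed the filter through the neuron-rich layers, so its call is not independent of the filter.

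RELN-AS-5 and RELN-AS-4, named after reelin, were counted mainly in the marginal zone, the layer through which they passed the filter. RELN-AS-5 was at 1.88 and 0.662 CPM in the MZ at E28, at 1.33 and 1.07 at E37 and at 0.268 and 0.917 at E42. In the 11 libraries of the CP it was at 0 to 0.0897 CPM, so the layers did not overlap. The pooled level in the MZ was 37.1-fold that in the CP, or 56.5-fold without E42 MZ replicate 1 (log2 6.08, SE 1.00, adjusted p = 5.81e-05), and the call held with each of 17 libraries left out. At E42 the ISVZ and OSVZ had 0 counts of RELN-AS-5 against 53 in the neuron-rich layers, at least 7.4-fold lower (adjusted p = 0.0392), or at least 4.77-fold without MZ replicate 1 and 4.88-fold without ISVZ replicate 2. This second call was lost without any one of the 4 subventricular libraries or MZ replicate 2 (adjusted p 0.072 to 0.109) and with DESeq2 (0.106), and had no test without CPo replicate 1, IZ replicate 1 or CPi replicate 2.

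RELN-AS-4 was counted mainly in the MZ of the earlier stages. Its MZ levels were 1.06 and 1.76 CPM at E28, 0.0556 and 2.15 at E37 and 0.0287 and 0 at E42, and 1 of 11 CP libraries had any count. The MZ was 63.2-fold the CP, or 37-fold without E37 MZ replicate 3 and 111-fold without E42 MZ replicate 1 (log2 5.18, SE 1.21, adjusted p = 0.00217), a contrast with no test without E42 MZ replicate 1, and DESeq2 gave an adjusted p of 0.45. In the neuron-rich layers it fell from E28 to E42 by 3.53 on the log2 scale (SE 1.16, adjusted p = 0.0267). That fall was lost without E42 MZ replicate 1, IZ replicate 2 or MZ replicate 2 (adjusted p 0.0531, 0.0665 and 0.0619) and had no test without E28 IZ replicate 1 or CP replicate 2. DESeq2 gave an adjusted p of 0.601.

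With the replicate number as a block within each stage, E42 included, RELN-AS-5, RELN-AS-4, ADAMTS9-AS-1 and LINC-GPC1-6 had no test between MZ and CP. There, 3 of the 8 members kept a call. The remaining one, LINC-GPC1-5, had an adjusted p of 0.0556. Summed levels of 64 features named after vascular genes were 0.789 to 1.83 CPM in the MZ and 0.536 to 1.51 in the CP. Those of 29 features named after meningeal genes were 0.434 to 3.5 in the MZ and 0.772 to 3.45 in the CP. Their part in the MZ results was not tested, and 33 and 10 of these features had no count.

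TNC-AS-2 bears the name of tenascin C, a matrix glycoprotein of germinal zones and radial glia. At E28 it was at 1.34 and 6.6 CPM in the VZ, at 0.469 and 3.01 in the ISVZ and at 0.248 and 0.116 in the OSVZ, and no neuron-rich library exceeded 0.276. The pooled germinal level was 18.9-fold higher, or 9.08-fold without VZ replicate 2 (log2 4.55, SE 0.94, adjusted p = 0.000467), and the groups overlapped through the OSVZ. At E42 it was at 18.8 CPM in the VZ library, at 5.18 and 2.13 in the ISVZ and at 1.62 and 4.03 in the OSVZ.

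The MZ was the neuron-rich layer in which TNC-AS-2 was high at the later stages. It was at 0.243 and 0 CPM there at E28, 0.889 and 2.23 at E37 and 13.3 and 5.21 at E42, against 0 to 0.568 in the CP libraries. The MZ was 43.4-fold and the IZ 5.64-fold the CP (log2 5.21, SE 0.91, adjusted p = 0.000101, and 4.00, SE 0.90, adjusted p = 0.00232). These pooled ratios weight each library by its depth, and E42 MZ replicate 1, the deepest library, held 1387 of the 1604 MZ counts. Without it the MZ was 10.5-fold the CP, and without E42 CPo replicate 1 82.2-fold. The IZ ratio was 3.07 without E42 IZ replicate 1 and 10.7 without E42 CPo replicate 1. The MZ contrast has no test without E28 MZ replicate 1, which carries the E28 reads. With stage TNC-AS-2 rose 38.2-fold in the neuron-rich layers (adjusted p = 0.000144), and 9.28-fold without E42 MZ replicate 1. Its rise of 3.47-fold in the subventricular zones (12.5-fold without E28 ISVZ replicate 2, adjusted p = 0.0218) was lost without ISVZ replicate 1, OSVZ replicate 1 or OSVZ replicate 2 of E28, or ISVZ replicate 1 or OSVZ replicate 2 of E42 (adjusted p 0.0573 to 0.0953).

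HAPLN1-AS-1, named after the link protein that ties hyaluronan to lecticans, was largely a cortical plate feature of the late stage. It was at 2.98 and 4.75 CPM in the CPi and 0.745 and 0.798 in the CPo at E42 and at 1.14 in the E37 CP, and 1 count was found in the 12 libraries of E28. Elsewhere it did not exceed 0.216 CPM. In the neuron-rich layers the ratio of E42 to E28 was 188 (95% counting interval 33.5 to 7430, adjusted p = 0.00361), and 110 without E42 CPi replicate 2. Without E42 MZ replicate 1 or IZ replicate 2 that contrast had no test, and DESeq2 gave an adjusted p of 0.0769.

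The CP exceeded the MZ 18.8-fold for HAPLN1-AS-1, or 11.7-fold without E42 CPi replicate 2 (log2 -4.15, SE 1.47, adjusted p = 0.0357), the only member called lower in the MZ. The call was lost without E37 MZ replicate 3 (adjusted p = 0.0728) and had no test without E28 CP replicate 2 or E37 CPo replicate 3. At E42 it was 34.7-fold higher in the neuron-rich than in the subventricular layers (20.3-fold without CPi replicate 2 and 22.9-fold without ISVZ replicate 2, adjusted p = 0.0272), a call lost without any one of the 4 subventricular libraries (adjusted p 0.0619 to 0.106) and without a test when MZ replicate 1 or IZ replicate 2 was left out. DESeq2 gave 0.156 and 0.225 for these contrasts.

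**Figure D4:**
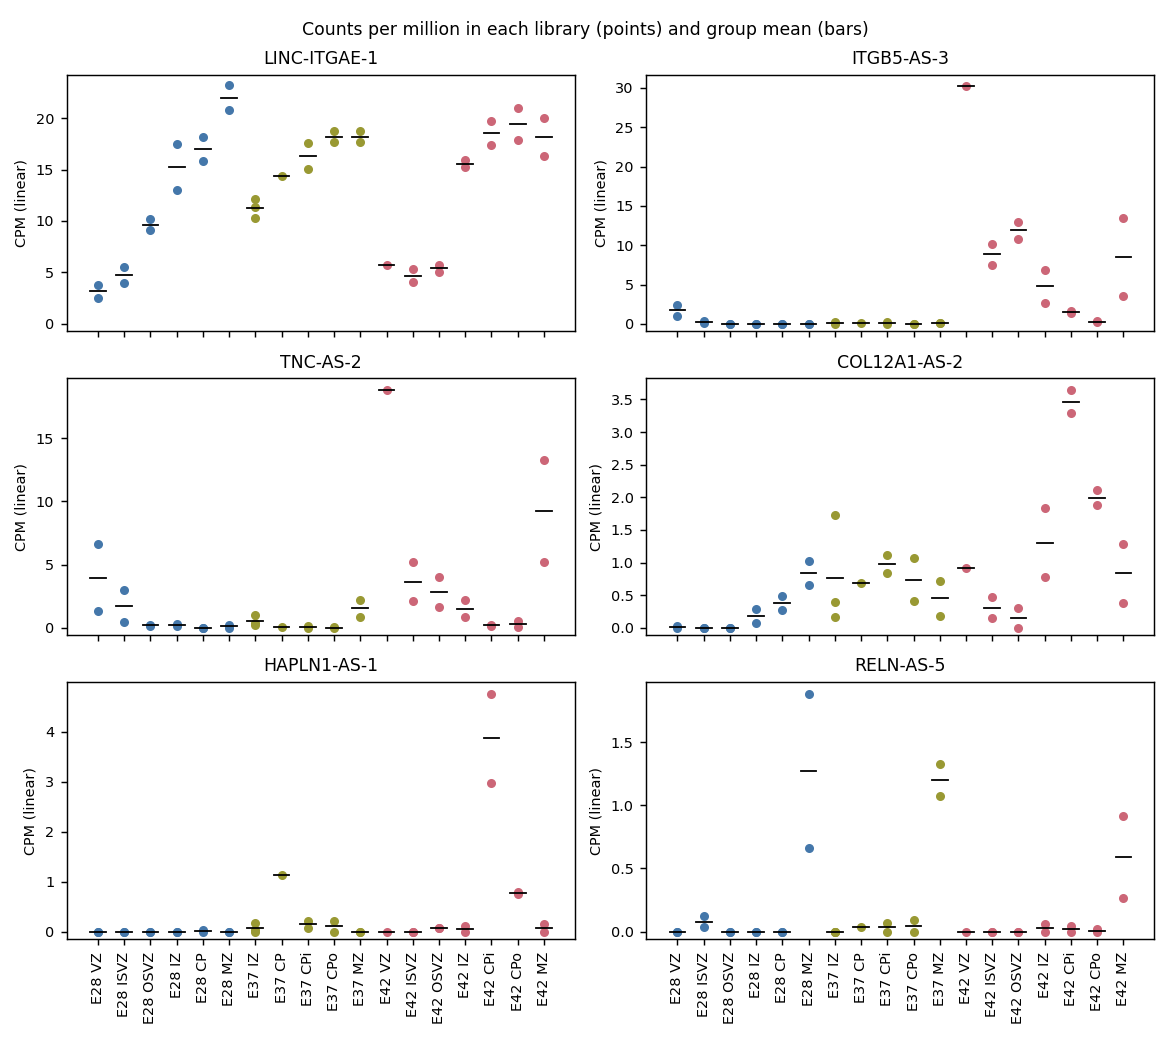
CPM (vertical axes, linear) of 6 members in each library (points, coloured by stage) with group means as bars. LINC-ITGAE-1 is higher in neuron-rich layers at E28 and E42, ITGB5-AS-3 is highest at E42, TNC-AS-2 is highest in the VZ and late MZ, HAPLN1-AS-1 in the CPi at E42 and RELN-AS-5 in the MZ.

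Of the collagen features, COL12A1-AS-2 was the most counted of those called. Collagen XII is a fibril-associated collagen. At E28 it had 1 count in the 6 germinal libraries and 82 in the neuron-rich ones, where it was at 0.492 and 0.271 CPM in the CP, 0.29 and 0.0691 in the IZ and 1.03 and 0.662 in the MZ, without overlap (ratio 94.2, 95% counting interval 16.4 to 3760, adjusted p = 4.28e-05). At E42 it was at 3.29 and 3.64 CPM in the CPi, 2.11 and 1.88 in the CPo, 1.83 and 0.782 in the IZ and 1.28 and 0.386 in the MZ. The ISVZ had 0.144 and 0.466 and the OSVZ 0.309 and 0, which left the neuron-rich layers 7.79-fold higher, or 14.7-fold without ISVZ replicate 2 (log2 -2.77, SE 0.74, adjusted p = 0.00513).

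Both layer classes had more COL12A1-AS-2 at E42. In the subventricular zones it rose at least 10.7-fold from 0 counts, or at least 5.69-fold without E42 ISVZ replicate 2 (adjusted p = 0.00421), with no test without E42 OSVZ replicate 1. In the neuron-rich layers it rose 4.11-fold (log2 1.88, SE 0.60, adjusted p = 0.0181), and this was lost without CP, IZ or MZ replicate 2 of E28 or IZ or MZ replicate 1 of E42 (adjusted p 0.0502 to 0.102).

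Features named after collagens of basement membranes, the sheets under the pia and around vessels, moved in both directions. COL4A1-AS-6, after the alpha 1 chain of collagen IV, had 4 counts in the germinal and 43 in the neuron-rich layers at E28 (12.3-fold, adjusted p = 0.00132), with no test without CP replicate 2. It rose 16.9-fold in the subventricular zones (adjusted p = 0.00545, and 0.106 without E42 OSVZ replicate 2) and 3.91-fold in the neuron-rich layers (adjusted p = 0.0102). E28 ISVZ replicate 2 held 3 of the 4 germinal counts of COL4A1-AS-6. Without it the ratio was 41.4 between layers and 50.6 for stage in the subventricular zones. COL4A3-AS-4, with 4 and 64 counts, and LINC-COL9A1-3, after a fibril-associated collagen, with 0 and 44, also rose with stage in the neuron-rich layers (adjusted p = 0.0451 and 0.0441). These last were named after their values were seen. Leaving out single libraries ended their calls in 8 and 11 of 14 cases (adjusted p 0.0501 to 0.147 and 0.0522 to 0.126) and left no test in 2 and 1, and DESeq2 gave COL4A3-AS-4 an adjusted p of 0.186.

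LINC-COL15A1-1 and COL15A1-AS-1 are named after collagen XV, found at basement membranes. LINC-COL15A1-1 was highest in the IZ at the later stages, at 0.731, 0.335 and 1.77 CPM at E37 and 1.97 and 1.14 at E42, and at E42 it had 6 counts, all in 1 of the 4 subventricular libraries. The neuron-rich layers were 20.2-fold higher at E42, or 13.3-fold without ISVZ replicate 2 (log2 -5.03, SE 1.14, adjusted p = 0.00112). COL15A1-AS-1 was at 1.73 and 1.7 CPM in the E42 IZ and 13.8-fold higher in the neuron-rich layers, or 9.11-fold without ISVZ replicate 2 (adjusted p = 0.00613, and 0.056 without OSVZ replicate 2). E42 ISVZ replicate 1 held 8 of the 9 subventricular counts of COL15A1-AS-1, and without it the ratio was 92.7. Over the 35 libraries the levels of the pair had a Spearman correlation of 0.63, the highest among 29 pairs of members of one symbol (median 0.15). The libraries and their depths are shared by both features, and the value is a description.

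The IZ exceeded the CP 3.66-fold for LINC-COL15A1-1 (adjusted p = 0.0157), a call lost without CP replicate 1 or 2 or IZ replicate 2 of E28 (adjusted p 0.0505, 0.0671 and 1), the last of which holds all E28 IZ reads. Its fall with stage in the ISVZ and OSVZ (log2 -3.33, adjusted p = 0.0489) was lost without any one of 5 of the 8 libraries (ISVZ replicate 1 and OSVZ replicate 1 of E28, and ISVZ replicates 1 and 2 and OSVZ replicate 2 of E42, adjusted p 0.12 to 0.169), and with limma (adjusted p = 0.114).

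Other collagen features called higher in the IZ than in the CP rested on few counts. COL20A1-AS-1 had 62 counts in 7 IZ libraries and 34 in 11 CP libraries (3.17-fold), COL14A1-AS-2 58 and 52 (1.94-fold, or 2.98-fold without E42 CPi replicate 1), and COL25A1-AS-3 29 and 12 (4.2-fold), with adjusted p of 0.0372, 0.0319 and 0.0469. The groups overlapped for each. Leaving out single libraries ended these calls in 9, 5 and 11 of 18 cases (adjusted p 0.0527 to 0.221, 0.0552 to 0.101 and 0.0545 to 0.212), E28 CP replicate 2 among them for all, and COL14A1-AS-2 and COL25A1-AS-3 had no test without an E28 IZ library. With the replicate block the adjusted p was 0.0971 for COL14A1-AS-2 and 0.0969 for COL25A1-AS-3.

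ADAMTS proteases, which cut lecticans and other matrix proteins, lent their names to 80 members, of which 9 passed the filter. ADAMTS9-AS-1 was at 0.485 and 0.617 CPM in the MZ at E28, 0.667 and 0.786 at E37 and 1.49 and 2.17 at E42, against 0 to 0.905 (median 0.107) in the CP. The MZ was 6.21-fold the CP, or 12.3-fold without E42 CPi replicate 1 (log2 3.64, SE 0.68, adjusted p = 9.4e-05). With stage it rose 4.27-fold in the neuron-rich layers (adjusted p = 0.00186), or 6.75-fold and 6.47-fold without MZ replicate 1 or 2 of E28. The rise of 8.84-fold in the subventricular zones, without overlap (adjusted p = 0.0125), was lost without E28 ISVZ replicate 1, E28 OSVZ replicate 1 or E42 OSVZ replicate 2 (adjusted p 0.0597, 0.0711 and 0.0959).

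ADAMTS19-AS-1 separated the stages in the neuron-rich layers. The 6 libraries of E28 had 0 to 0.176 CPM and the 8 of E42 had 0.29 to 1.6 (median 0.722), without overlap (18.9-fold, or 32.9-fold without E28 MZ replicate 2, log2 3.77, SE 0.74, adjusted p = 0.000244). E37 lay at 0.302 to 1.14 CPM. In the ISVZ and OSVZ there were 2 counts at E28 and 30 at E42 (ratio 12.1, 95% counting interval 3.06 to 104, and 6.47 without E42 ISVZ replicate 1, adjusted p = 0.0123), a call lost without E28 OSVZ replicate 1 or E42 ISVZ replicate 1 (adjusted p 0.0517 and 0.149). ADAMTS12-AS-4 had 1 count in the neuron-rich layers at E28 and 83 at E42, in 8 of 8 libraries (ratio 37.6, interval 6.57 to 1500, adjusted p = 0.00277).

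A further 3 ADAMTS features were lower in the germinal layers at E28. ADAMTS8-AS-1 was at 0.16 and 0.173 CPM in the VZ and at 2.46 and 2.43 in the MZ, with overlap through the OSVZ (3.62-fold, or 6.48-fold without OSVZ replicate 1, log2 -1.98, SE 0.45, adjusted p = 0.000788). ADAMTS16-AS-1 had 0 counts in 6 germinal libraries and 39 in 6 of 6 neuron-rich ones, at least 14.9-fold lower (adjusted p = 0.000467), and ADAMTS7-AS-1 had 2 against 60 (ratio 34.5, interval 9.13 to 291, and 56.6 or 57.2 without either OSVZ library, adjusted p = 0.000883), both without overlap. These 3 calls held with each of 12 libraries left out. ADAMTS16-AS-1 and ADAMTS7-AS-1 had at most 0.0747 and 0.0995 CPM in any germinal library. They passed the filter through the neuron-rich layers, so their calls are not independent of the filter, also with libraries left out.

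ADAMTS16-AS-1 was also 4.93-fold higher in the IZ than in the CP (adjusted p = 0.0213), lost without E28 CP replicate 1 or 2, E28 IZ replicate 1, E37 IZ replicate 3 or E42 IZ replicate 1 (adjusted p 0.0524 to 0.104). ADAMTS7-AS-1 fell with stage in the neuron-rich layers (log2 -2.37, adjusted p = 0.044), which 10 of 14 single libraries left out ended (adjusted p 0.0626 to 0.22).

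Of the MMP features past the filter, MMP15-AS-1, LINC-MMP15-1 and LINC-MMP17-1 had their highest group mean in the E42 VZ. That group is a single library. MMP11-AS-1 was highest in the E28 MZ. MMP15-AS-1, after a membrane-bound metalloproteinase, was the second most counted member, at 0.485 to 13 CPM, and was called in no contrast. Its levels were highest in E28 VZ replicate 1 (13.0) and the E42 VZ library (12.3). LINC-MMP15-1 was 4.05-fold higher in the MZ than in the CP (log2 1.94, SE 0.46, adjusted p = 0.00146), with 0.445 to 1.98 CPM in the MZ and 0.0515 to 0.514 in the CP. Its highest layer median was in the VZ (2.31 CPM, 0.829 to 2.52 in 3 libraries), beside 0.923 in the MZ. At E42 it was 3.23-fold higher in the subventricular zones than in the neuron-rich layers (5.03-fold without MZ replicate 1, adjusted p = 0.0109, and 0.109 without OSVZ replicate 2).

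LINC-MMP17-1 (33 counts against 6) and MMP11-AS-1 (35 against 14) were higher in the IZ than in the CP (adjusted p = 0.0309 and 0.0104). LINC-MMP17-1 was lost without CP replicate 1 or 2 of E28, E37 IZ replicate 3 or E42 CPo replicate 1 (adjusted p 0.051 to 0.201) and had no test without IZ replicate 2 of E28 or E42. Its adjusted p was 0.207 with limma and 0.0575 with the block. MMP11-AS-1 was lost without E28 IZ replicate 1 or CP replicate 2 (adjusted p 0.0572 and 0.0521), and had no test with the block or without E37 IZ replicate 3.

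Glypicans and syndecans are heparan sulfate proteoglycans of the cell surface, and 7 of 55 members named after them passed, all LINC features. LINC-GPC1-6 had 59 counts in the MZ and 6 in the CP (15.4-fold, adjusted p = 0.0105), a call lost without E28 MZ replicate 1 or E37 MZ replicate 3 (adjusted p 0.107 and 0.0587) and without a test when E42 MZ replicate 1 was left out. It was not confined to the MZ, since the 3 VZ libraries had 0.326 to 0.479 CPM and the MZ 0 to 0.485 (median 0.0803). LINC-GPC1-5, with 19 and 4 counts (adjusted p = 0.037), was lost without CP replicate 1 or 2 of E28 or CPi replicate 1, CPi replicate 2 or CPo replicate 1 of E42 (adjusted p 0.0509 to 0.0986), and had no test without E28 MZ replicate 1, E37 MZ replicate 2 or E42 MZ replicate 1. Of the laminin features, 5 of 30 passed. Among these, LAMA5-AS-2 had at most 0.276 CPM outside the ISVZ. It passed the filter through E42 ISVZ replicate 2 (0.484 CPM), so its call for a rise with stage is not independent of the filter. LAMA5-AS-2, after the alpha 5 chain of basement membrane laminins, had 1 count in the ISVZ and OSVZ at E28 and 42 at E42 (ratio 33.8, interval 5.74 to 1360, and 18.3 without E42 ISVZ replicate 2, adjusted p = 0.0494), and the call was lost without any one of the 8 libraries (adjusted p 0.0618 to 0.144) and with the block (0.0539).

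Among the features that met the rule by prefix alone, 2 were called at E28. LINC-TNRC6A-1, after a scaffold protein of microRNA silencing, was at 0.637 to 1.73 CPM in the germinal and 0 to 0.322 in the neuron-rich layers, without overlap (6.55-fold, log2 3.21, SE 0.73, adjusted p = 0.00071). TNRC18-AS-3 was 6.8-fold higher in the germinal layers with overlap (4.42-fold without VZ replicate 2 and 17.2-fold without CP replicate 2, adjusted p = 0.00766, and 0.0853 without ISVZ replicate 2). Thus 2 of the 4 members called higher in the germinal layers at E28 were not named after matrix genes.

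Noncoding features named after other matrix genes (nidogens, perlecan, agrin, SPARC, thrombospondins, fibulins, lysyl oxidases, TIMPs and the like) numbered 259, of which 47 passed the filter. Germinal against neuron-rich layers gave 1 higher and 5 lower among 29 testable at E28 and 2 and 1 among 39 at E42. Over all features the shares were 21.5% and 19.9% at E28 and 14.9% and 13.9% at E42. Between OSVZ and ISVZ edgeR called 0 of 42 at each stage, with 3 and 2 at an unadjusted p under 0.05. All features had 4.04% and 5.52% there at E28 and 0.492% and 0.308% at E42. The MZ had 3 higher and 0 lower than the CP among 30, against 18.2% and 17.3% of all. The IZ had 2 and 1 among 32, against 11.7% and 11.1%. With stage, 4 rose and 0 fell among 36 in the subventricular zones, against 13.5% and 10.4% of all. In the neuron-rich layers 5 rose and 1 fell among 37, against 19.1% and 11.4%.

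**Figure D5:**
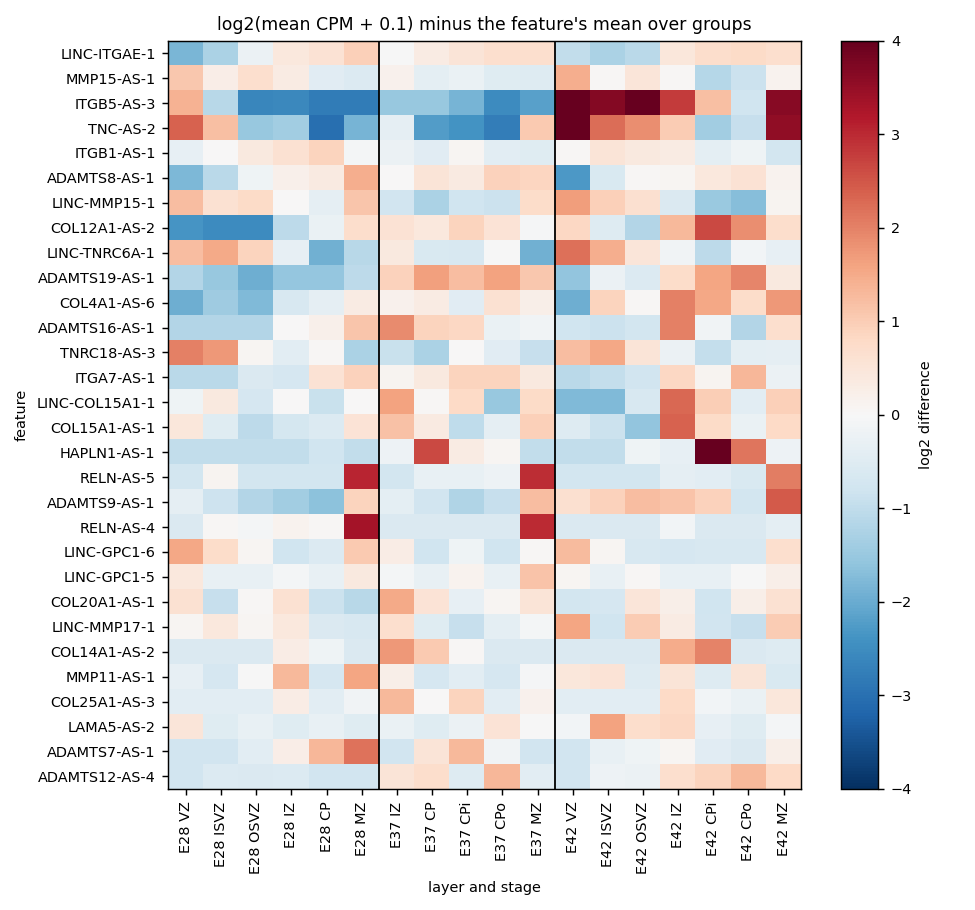
Group means of 30 members as log2(mean CPM + 0.1) minus the feature's own mean over the 18 groups (red higher, blue lower), with the stages separated by lines. The E42 columns are red for ITGB5-AS-3 outside the CPo, and the MZ columns are red for RELN-AS-5.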

How the data were processed

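RNA of laser-captured layers of fetal tree shrew cortex was sequenced from poly-A selected libraries. Per the labels and the study's methods, the authors mapped reads with HISAT2 and counted them with HTSeq on the tree shrew annotation, and the deposited values are raw integer counts per feature, not normalized. Lines of reads that the counter did not assign (40.65% to 52.02% of all lines) were left out. Layer and stage came from sample titles, and 35 of 36 files were used because 1 repeats another.

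Here, features were filtered with filterByExpr (minimum count 10, by group), scaled by TMM and fitted in edgeR 4.0.16 (R 4.3.3) with a mean per group (18 groups, 17 residual degrees of freedom), robust glmQLFit and glmQLFTest, with Benjamini-Hochberg adjustment over all 26858 features. Where a layer without any count stood on both sides of a contrast, that feature was treated as untestable (with the block, where p exceeded 0.99). DESeq2 1.42.0 and other settings were alternatives, and limma 3.58.1 on log2 CPM (prior count 2) was added after seeing the data, because zeros stay finite there. Leave-one-out fits reused the tested features and dispersion trend of the full model. Adjusted p-values are edgeR's unless another tool is named, and folds are ratios of pooled counts per library size, with a floor of 3 counts over a group at 0. Pooling gives deep libraries more weight, so each such fold was recomputed without each library, an alternative added after seeing the data. Of 56 values, 32 moved by more than 1.5 times for at least 1 library. For 18 values, partly the same ones, leaving out a library took the lower side to 3 counts or fewer, or from those to 0. Those shifts are not counted in the 32. An SE is the fitted log2 difference over the root of its F statistic. The script was tested on simulated data. Plots were drawn with matplotlib 3.10.9.

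Named members were the 10 with the highest mean CPM, up to 10 called per contrast by mean CPM, and the highest of each role without one. Members and lists were chosen with earlier results of these data known. The labels do not say that replicates come from separate animals, so p-values may measure technical spread. Replicate numbers deviated together across layers in 15 of 15 layer pairs at E28 (correlation 0.167 to 0.265), 6 of 6 at E37 (0.147 to 0.272) and 10 of 15 at E42 (-0.117 to 0.232). They were thus taken to pair libraries at E28 and E37, but the block as fitted covered E42 as well. Of 122 symbols, 114 were in the RefSeq table. Depth per library limits precision: the median library held 1004 member counts.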

Additional observations from a re-analysis of the deposited data

Results flagged for a closer look

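LINC-COL15A1-1 differed in its change with stage between layer classes: the change from E28 to E42 in the ISVZ and OSVZ minus that in the neuron-rich layers was -5.25 on the log2 scale (SE 1.42, edgeR adjusted p = 0.0151 for the interaction contrast). The E42 ISVZ had no count of it, so its fitted mean there runs without limit. The -5.25 and its SE therefore do not give a size. It was called lower at E42 in the ISVZ and OSVZ. That call was lost without any one of 5 of the 8 libraries, with limma (adjusted p = 0.114) and in edgeR with all 36 files (adjusted p = 0.0546). The IZ went from 0 and 0.484 CPM at E28 to 1.97 and 1.14 at E42. The interaction call was lost without E28 OSVZ replicate 1 (log2 -4.79, adjusted p = 0.0702) or E42 ISVZ replicate 2 (log2 -5.23, adjusted p = 0.0556). No group held enough libraries for a test of single outlying samples.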

How the results depend on the processing

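The number of members called moved by more than 1.5 times under these settings. For germinal against neuron-rich layers at E42, 8 became 16 with only the compared libraries and 17 with limma. For OSVZ against ISVZ at E28, 1 became 3 with no filter, 2 with DESeq2, 2 with the replicate block and 0 with only the compared libraries. For MZ against CP, 8 became 5 with DESeq2 and 3 with the block, where 4 of the 8 had no test. The interaction went from 1 to 2 with no filter, with DESeq2 and with limma. The other counts stayed within 1.5 times of their value, and the block (fitted within each stage, E42 included) changed no other count by more than that.

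With single libraries left out, calls ranged from 9 to 12 (germinal against neuron-rich, E28), 4 to 10 (E42), 0 to 1 (OSVZ against ISVZ, E28), 0 to 0 (E42), 5 to 9 (MZ against CP), 1 to 8 (IZ against CP), 3 to 7 (stage, subventricular), 7 to 13 (stage, neuron-rich) and 0 to 2 (interaction). The counts that moved were 4 without E42 OSVZ replicate 2 (germinal, E42), 0 without E28 ISVZ replicate 1 or OSVZ replicate 2 (OSVZ against ISVZ), 5 without E28 MZ replicate 1 (MZ), 7 without E42 IZ replicate 2 (stage, neuron-rich), and 0 without E28 OSVZ replicate 1 or E42 ISVZ replicate 2 and 2 without E42 MZ replicate 1 (interaction). For IZ against CP they were 3 and 1 without E28 CP replicates 1 and 2, 5 without either E28 IZ library, 2 without E37 IZ replicate 3 and 4 without E42 CPo replicate 1. For stage in the subventricular zones they were 4 without E28 or E42 ISVZ replicate 1 and 3 without E28 OSVZ replicate 1 or E42 OSVZ replicate 2. The causes were not tested.

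No named change reversed under any setting. With single libraries left out, 593 of 698 calls of named members held, 105 were lost and a further 28 had no test, which is not a lost call. DESeq2 kept 43 of 49 and gave no adjusted p for 5. limma kept 50 of 54.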
